A study of Mus musculus with 4 samples.

Results

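The pancreatic lipases and colipase are 6 genes whose products digest dietary fat: Pnlip, Pnliprp1, Pnliprp2, Cel, Clps and Pla2g1b. They were chosen by gene symbol, and all 6 were found among the 55291 symbols counted in each library. The 4 libraries came from mouse pancreas, 2 labelled knockout (Pdx1-Cre+, poh1f/f) and 2 labelled control (Pdx1-Cre+, poh1f/+). Both groups carried the Cre transgene, whose Pdx1 promoter works in the embryonic cells that give rise to the pancreatic epithelium, and at least 1 floxed copy of poh1, so the comparison concerns the second copy. The gene poh1 is now named Psmd14 and encodes a deubiquitinase of the proteasome lid. The labels give neither age, sex and dissection nor the number of animals behind a library. The p-values therefore describe the spread between these libraries, which may be technical.

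Acinar cells of the pancreas make fat-digesting enzymes in bulk, store them in zymogen granules and release them into the duodenum when a meal arrives. Pancreatic triglyceride lipase, made from Pnlip, splits dietary triglycerides but is blocked by bile salts unless colipase, made from Clps, anchors it to the fat droplet. Pnliprp1 and Pnliprp2 encode relatives of this lipase. Cel encodes a bile salt-dependent lipase that splits cholesterol esters, and Pla2g1b a secreted phospholipase A2 that trypsin activates.

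On GRCm38, in the GENCODE M21 annotation, the triglyceride lipase and its relatives lie in a row on the plus strand of chromosome 19. Pnlip spans 58652498 to 58681788, Pnliprp1 58728887 to 58744169 and Pnliprp2 58759719 to 58777534. Cel lies on the minus strand of chromosome 2 (28555795 to 28563403), Clps on the minus strand of chromosome 17 (28558149 to 28560766) and Pla2g1b on the plus strand of chromosome 5 (115466262 to 115474722). The longest run of identical bases between the transcripts of any pair of these genes was 23 bases, between Pnlip and Pnliprp1. An antisense gene, Gm13381, overlaps Cel, and its reads could not be told from those of Cel if strand was ignored in counting. It had 5 and 17 counts in the libraries labelled knockout, against 46 and 16 in control libraries, few beside the counts of Cel given below. A miRNA gene, Mir6969, lies within Clps and had at most 2 counts in any library.

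RefSeq promoter windows on GRCm38.p6 were found for 5 of the 6 genes. The 250 bases before the start are shown for 3 of them, picked by the edgeR fit reported below. Pnlip and Cel had the largest falls in that fit, and Pnliprp1 the smallest. Each is written 5′ to 3′ on the strand of its gene, and capitals mark motif letters found on either strand. The motifs searched were TATAAA, where transcription often begins nearby, and CANNTG, the E box. The TC box was searched as TTTCCCA, the site of nuclear receptors such as NR5A2 as AAGGTCA, and that of factors of the GATA family as AGATAA. An E box together with a TC box is the pattern bound by PTF1, the complex that drives acinar enzyme genes.
Pnlip, chr19:58670115-58670364, plus strand: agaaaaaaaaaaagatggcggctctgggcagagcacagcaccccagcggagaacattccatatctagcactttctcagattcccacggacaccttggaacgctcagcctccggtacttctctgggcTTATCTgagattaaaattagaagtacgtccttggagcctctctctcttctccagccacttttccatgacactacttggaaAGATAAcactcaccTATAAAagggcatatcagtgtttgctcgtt
Pnliprp1, chr19:58728637-58728886, plus strand: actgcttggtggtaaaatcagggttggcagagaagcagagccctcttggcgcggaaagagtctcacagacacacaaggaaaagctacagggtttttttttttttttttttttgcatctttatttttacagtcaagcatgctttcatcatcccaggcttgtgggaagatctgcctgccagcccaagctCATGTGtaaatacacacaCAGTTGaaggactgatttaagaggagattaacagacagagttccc
Cel, chr2:28563404-28563653, minus strand: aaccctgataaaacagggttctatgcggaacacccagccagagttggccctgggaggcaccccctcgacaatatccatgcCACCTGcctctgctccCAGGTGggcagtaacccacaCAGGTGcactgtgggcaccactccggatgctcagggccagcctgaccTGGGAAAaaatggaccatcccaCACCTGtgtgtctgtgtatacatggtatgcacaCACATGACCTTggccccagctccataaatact

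The Pnlip window held TATAAA 30 bases before the start and AGATAA at 44 and 124 bases before it. The Cel window held 5 E boxes, 1 TC box and 1 AAGGTCA, whose letters overlap the E box nearest the start, and the Pnliprp1 window held 2 E boxes. Among the 5 windows, E boxes were in 3 and each of the other motifs was in 1. Over all 32817 promoter windows of the same length, 66.2% held CANNTG, 12.4% TATAAA, 9.99% AGATAA, 6.81% TTTCCCA and 4.08% AAGGTCA. Of 13 windows of proteases, amylase and ribonuclease of the acinar cell, 5 held both an E box and a TC box, as did 4.65% of all windows. The RefSeq start used for Pnlip lies within the GENCODE span of the gene, whose annotated first base is further upstream. A match of letters is a description, and whether any factor binds there was not tested.

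**Figure D1:**
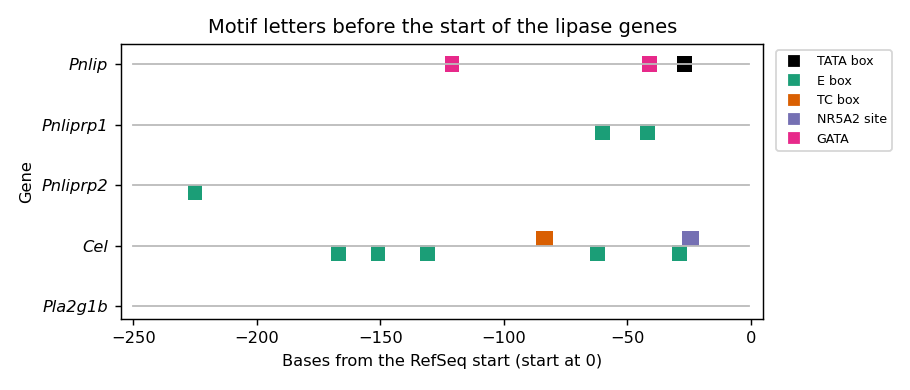
Positions of the motif letters in the 250 bases before the RefSeq start of 5 genes, with the distance from the start in bases on the horizontal axis and a coloured block for each match. Cel carries 5 E boxes with 1 TC box and 1 NR5A2 site, whereas Pla2g1b carries none of the motifs.

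Total counts were 27470926 and 27849730 in the libraries labelled knockout and 22875618 and 24635792 in control libraries. Levels are given as CPM, counts scaled to a common library size with TMM factors, in libraries labelled knockout 1 and 2 and control libraries 1 and 2. Psmd14, the targeted gene, showed no fall, with 65.9 and 65.2 CPM in the libraries labelled knockout against 61.6 and 52.9 CPM in control libraries (log2 fold change 0.20 ± 0.11 SE, edgeR adjusted p = 0.259), so each direction below is one between labels. Acinar markers were detected in every library, with summed levels of 184 and 512 CPM in the libraries labelled knockout, against 7084 and 1759 CPM in control libraries. Markers of enterocytes stood apart in the second library labelled knockout. Their summed level was 12.8 and 576 CPM in the libraries labelled knockout, against 62.8 and 73.0 CPM in control libraries, and 3 and 0 of the 10 markers were at 0 in the libraries labelled knockout, against 6 and 4 in control libraries. Of all genes tested, 9.95% were called lower and 12.1% higher (edgeR). Of 10 markers each, 8 of duct, 7 of islet, 8 of macrophage, 6 of fibroblast and 4 of acinar cells were called lower. Of 8 endothelial markers, 2 were called higher. Most of these counts moved with single libraries. Without the first control library 7 duct, 2 islet, 3 macrophage, 5 fibroblast and 2 acinar markers were called lower and 1 endothelial marker higher. Without the second control library 2 acinar markers were called lower and 3 endothelial markers higher. Without the first library labelled knockout 10 islet, 4 macrophage and 8 acinar markers were called lower, and without the second 10 islet, 4 macrophage and 9 acinar markers were. Duct markers summed to 796 and 845 CPM in the libraries labelled knockout, against 3136 and 2570 CPM in control libraries, and islet markers to 494 and 204 CPM, against 1975 and 1149 CPM in control libraries. The part of these cell types in the results below was not tested.

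All 6 lipase and colipase genes had less RNA in both libraries labelled knockout than in either control library. Of the 6, 5 fell in the test over all genes, and 1, Pla2g1b, did not pass (edgeR, Benjamini-Hochberg adjusted p below 0.05). Of the 19134 genes tested, 9.95% were called lower, and 33.7% were lower without overlap between the groups. The median log2 fold change of the 6 genes, knockout minus control, was −5.18, and that of all genes tested was −0.00. All 6 passed the filter on low counts. A filter of this kind keeps a gene that is high in control libraries alone, so the count describes these genes and no more. The 6 genes together made up 0.00478% and 0.0156% of counts in the libraries labelled knockout, against 0.455% and 0.0846% in control libraries. In bulk tissue, fewer acinar cells and less RNA per acinar cell cannot be told apart.

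**Figure D2:**
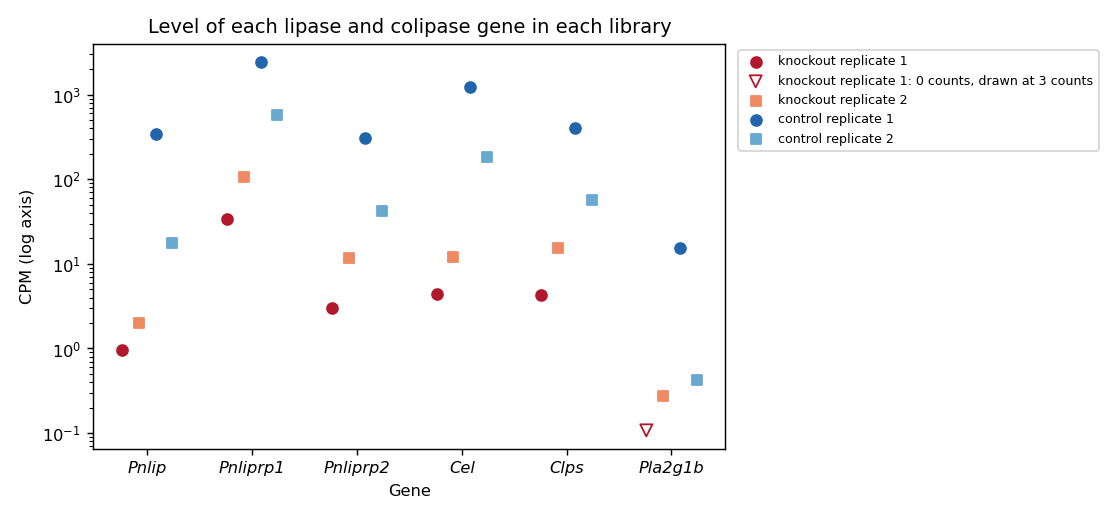
Level of each gene in each library, in CPM on a log axis, with 1 point per library and an open triangle for 0 counts. For every gene both libraries labelled knockout lie below both control libraries, and the first control library is the highest, from 15.5 CPM for Pla2g1b to 2411 CPM for Pnliprp1.

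Pnlip, the triglyceride lipase itself, had the largest fall of the 6 genes in the reported fit. It was at 0.967 and 1.99 CPM in the libraries labelled knockout (from 27 and 58 counts), against 342 and 17.7 CPM in control libraries (7527 and 424 counts). The groups did not overlap, and the lower control library was 8.93 times the higher library labelled knockout, but the control libraries themselves differed 19.3-fold. Its log2 fold change of −6.92 ± 1.62 (SE, n = 2 per group) had a 95% interval of −11.04 to −2.80 (edgeR adjusted p = 0.0392). limma-voom did not call it (−5.78, adjusted p = 0.255), nor did edgeR without the first control library (−3.58, adjusted p = 0.0586). Cel fell further than Pnlip with limma-voom (−6.03 against −5.78) and with a replicate block (−5.99 against −5.76). The same held without the first control library (−4.46 against −3.58), and in each other setting Pnlip fell further than Cel. By count, Pnlip ranked 16303rd and 15009th among all genes in the libraries labelled knockout, against 394th and 9377th in control libraries.

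Pnliprp1 encodes a lipase relative that, in the species studied, shows little activity on triglycerides. It was the most abundant of the 6 genes in every library. It was at 34.4 and 108 CPM in the libraries labelled knockout (from 960 and 3144 counts), against 2411 and 574 CPM in control libraries (53018 and 13719 counts). The groups did not overlap, and the gap between the nearest libraries was 5.33-fold. In the reported fit its log2 fold change was the smallest in size of the 6, at −4.39 ± 0.93 (95% interval −6.76 to −2.03, edgeR adjusted p = 0.0308). Clps (−4.21) and Pnliprp2 (−4.24) fell less than Pnliprp1 (−4.28) with limma-voom. They also fell less with a replicate block (−4.15 each, against −4.27) and without the first control library. By count Pnliprp1 ranked 6994th and 2235th among all genes in the libraries labelled knockout, against 17th and 156th in control libraries. The call was lost without the first control library (−3.01, edgeR adjusted p = 0.113).

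Pnliprp2 encodes a lipase that also splits phospholipids and galactolipids, and in mice it is known from the suckling pancreas and from cultured cytotoxic T cells. It was at 3.01 and 11.7 CPM in the libraries labelled knockout, against 312 and 41.9 CPM in control libraries. The groups did not overlap, with 3.57-fold between the nearest libraries. Its log2 fold change was −4.58 ± 1.17 (95% interval −7.57 to −1.59), and the adjusted p of 0.0494 (edgeR) lay close to the threshold. Its call was lost in several settings, among them DESeq2 size factors (adjusted p = 0.0510), limma-voom (0.103) and edgeR without the first control library (−2.50, 0.179). All 12 lymphocyte markers were called higher, with summed levels of 2186 and 1820 CPM in the libraries labelled knockout against 176 and 125 CPM in control libraries. Their part in the level of Pnliprp2 was not tested.

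Clps, whose product colipase lets the lipase work in bile, was at 4.26 and 15.3 CPM in the libraries labelled knockout, against 403 and 56.8 CPM in control libraries. The second library labelled knockout was 3.58 times the first, and the first control library 7.10 times the second, yet the groups did not overlap. It fell by 4.55 ± 1.14 on the log2 scale (95% interval −7.46 to −1.64, edgeR adjusted p = 0.0469). limma-voom gave −4.21 (adjusted p = 0.0819), and edgeR without the first control library −2.53 (adjusted p = 0.163).

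Cel, the bile salt-dependent lipase, had the widest gap between the groups. It was at 4.41 and 11.9 CPM in the libraries labelled knockout (from 123 and 348 counts), against 1249 and 181 CPM in control libraries (27465 and 4329 counts). The lower control library was 15.2 times the higher library labelled knockout. Its log2 fold change was −6.45 ± 1.17 (95% interval −9.44 to −3.46, edgeR adjusted p = 0.0213). Of the 6 genes it had the smallest adjusted p, and it was called in all 9 alternatives that kept the 4 libraries. Without the first control library it was −4.46 and was not called (edgeR adjusted p = 0.0596).

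Pla2g1b, the phospholipase A2 of pancreatic juice, was scarce. It had 0 and 8 counts in the libraries labelled knockout, against 341 and 10 counts in control libraries. The levels were 0 and 0.274 CPM in the libraries labelled knockout, against 15.5 and 0.418 CPM in control libraries, and a count of 0 in the first library labelled knockout allows up to 0.107 CPM (3 counts, for counting error only). The second control library thus lay near the second library labelled knockout, and only the first control library stood well above the others. Pla2g1b did not pass (log2 fold change −5.79 ± 1.99, edgeR adjusted p = 0.0982). Without the first control library it was −1.56 (edgeR adjusted p = 0.599). It was called without the first library labelled knockout (−4.84, edgeR adjusted p = 0.0166), and without the second (adjusted p = 0.00373), where the only remaining library labelled knockout was at 0 and the fitted fold is no bound.

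None of these calls was kept without the first control library. Leaving out that library changed the adjustment over all genes as well as the fold changes. Without it, 0 of the 6 genes were called, although 4 had an unadjusted p under 0.05, and 2.08% of all genes tested were called lower. All 6 fold changes kept their negative sign, from −4.46 for Cel to −1.56 for Pla2g1b. Without the second control library 5 of the 6 genes were called (5.58% of all genes lower), and leaving out the first or the second library labelled knockout left all 6 called (8.49% and 7.65% of all genes lower). DESeq2 called 5 (12.8% of all genes tested were called lower) and limma-voom called 2, Pnliprp1 and Cel (9.94% of all genes). A filter on a mean count of at least 10 and a replicate block each left 3 called (9.08% and 7.48% of all genes lower).

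**Figure D3:**
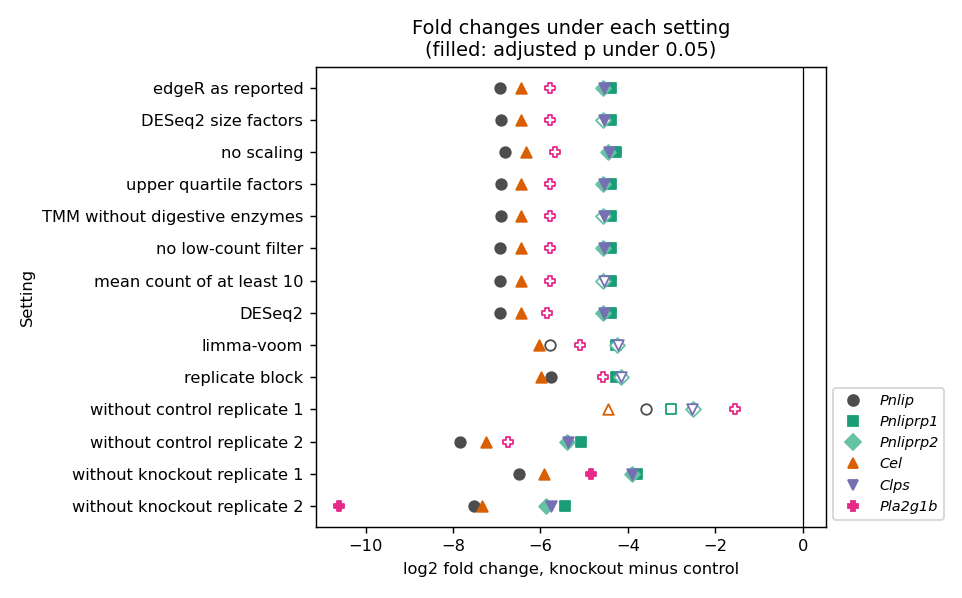
Log2 fold change of each gene, knockout minus control, in the reported fit and under each alternative, with a filled symbol where the adjusted p was under 0.05. Every value lies below 0, and without control replicate 1 no symbol is filled and the values range from −4.46 to −1.56.

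Per kilobase of exon, which allows genes to be compared within a library, Pnliprp1 led in all 4 libraries and colipase came second. Pnliprp1 was at 15.5 and 48.4 CPM per kb in the libraries labelled knockout, against 1085 and 258 CPM per kb in control libraries. Clps was at 6.98 and 25.0 CPM per kb in the libraries labelled knockout, against 659 and 92.9 CPM per kb in control libraries. Pnlip was the fifth and Pla2g1b the sixth in every library. Cel and Pnliprp2 held the places between. Cel was ahead in the first library labelled knockout (2.09 against 1.91 CPM per kb for Pnliprp2) and in both control libraries, and Pnliprp2 was ahead in the second library labelled knockout (7.47 against 5.66 for Cel).

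The make-up of this RNA differed between labels mainly at Cel. Cel held 7.79% and 6.45% of the summed CPM per kb of the 6 genes in the libraries labelled knockout, against 21.9% and 18.2% in control libraries. Clps held 25.9% and 28.5% in the libraries labelled knockout, against 24.3% and 19.7% in control libraries. Pnliprp1 held 57.5% and 55.1% in the libraries labelled knockout, against 40.0% and 54.6% in control libraries, so that the second control library was near the libraries labelled knockout.

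**Figure D4:**
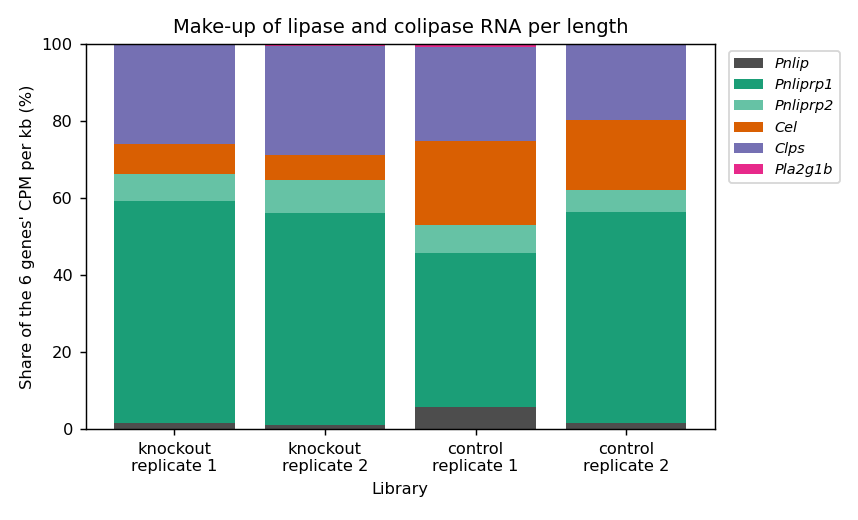
Share of each gene in the summed CPM per kb of the 6 genes, in percent, with 1 stacked bar per library. The Cel share is 7.79% and 6.45% in the libraries labelled knockout and 21.9% and 18.2% in control libraries, and Pnliprp1 is the widest band in each bar.

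Ratios of counts within a library, which do not depend on scaling between libraries, set the genes apart from each other. Pnliprp2, Clps and Pnliprp1 kept close ratios over all 4 libraries, although the level of each varied 70.1-fold to 104-fold between the highest and the lowest library. Pnliprp2 per Clps was 0.706 and 0.769 in the libraries labelled knockout, against 0.774 and 0.738 in control libraries, a range of 1.10-fold. Pnliprp1 per Clps ranged 1.69-fold and Pnliprp1 per Pnliprp2 1.77-fold, and in each of these pairs the groups overlapped.

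Cel stood lower relative to these genes. Cel per Clps was 1.03 and 0.780 in the libraries labelled knockout, against 3.10 and 3.19 in control libraries, a difference of −1.81 on the log2 scale. Pnliprp1 per Cel was 7.80 and 9.03 in the libraries labelled knockout, against 1.93 and 3.17 in control libraries (a log2 difference of 1.76). Pnlip was also lower relative to Clps, with 0.227 and 0.130 Pnlip counts per Clps count in the libraries labelled knockout, against 0.850 and 0.312 in control libraries. The second control library lay nearer to the libraries labelled knockout than to the other control library in this ratio. Of the 10 pairs among the 5 genes with counts in every library, 6 did not overlap between the groups. All 6 set Pnlip or Cel against Pnliprp1, Pnliprp2 or Clps, which kept close ratios to each other, so these pairs are not independent. The exact two-sided permutation test gave p = 0.33 for each of the 6 pairs. This is the smallest value that 2 libraries against 2 can give, so none of these differences can pass a threshold of 0.05.

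The other digestive enzymes of the acinar cell were lower alongside the lipases. Of 15 proteases, amylases and ribonuclease, 13 were tested. Of these, 6 fell (9.95% of all genes tested were called lower) and 7 did not pass (edgeR). The median log2 fold change of the 13 was −4.87, beside −0.00 for all genes. Ctrl, a chymotrypsin-like protease, was at 4.51 and 9.89 CPM in the libraries labelled knockout, against 549 and 74.1 CPM in control libraries (−5.43 ± 1.11, edgeR adjusted p = 0.0282). Cela2a, an elastase, had a log2 fold change of −5.17 ± 1.10 (edgeR adjusted p = 0.0310). Without the first control library 1 of these enzymes was called lower, and without the second 8 were. Without the first library labelled knockout the median over the 14 enzymes then tested was −4.39. Without the second it was −6.06, again over 14. DESeq2 called 13 and the fit with a replicate block 2.

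Set against these enzymes as a sum, the lipase and colipase genes held a smaller share in the libraries labelled knockout. The size of that difference in sums rested largely on Ctrb1, a chymotrypsinogen. Summed counts of the 6 genes were 0.22 and 0.21 of the summed counts of the other enzymes in the libraries labelled knockout, against 0.38 and 0.33 in control libraries. On the log2 scale the ratio was −2.22 ± 0.02 in the libraries labelled knockout and −1.49 ± 0.13 in control libraries (SD, n = 2 each). The groups did not overlap, and the exact two-sided permutation test gave p = 0.33, again the smallest value possible. Ctrb1 alone held 59.5% and 52.6% of the summed counts of the other enzymes in the libraries labelled knockout, against 31.0% and 46.5% in control libraries. In an alternative chosen after seeing the data, without Ctrb1, the ratio was 0.534 and 0.449 in the libraries labelled knockout, against 0.549 and 0.622 in control libraries, so that the groups lay close together. Without Ctrb1 and Prss2, a trypsinogen, it was 0.746 and 0.659 in the libraries labelled knockout, against 0.635 and 0.806 in control libraries, and the groups overlapped. Means of log2 CPM, in which each gene weighs the same, kept more of the difference (−0.58). The 6 genes then stood at −1.10 and −1.11 relative to the other tested enzymes in the libraries labelled knockout. In control libraries they stood at −0.31 and −0.74, without overlap between the groups. In the reported fit the median log2 fold change of the other enzymes was −4.87. Pnliprp1 (−4.39 ± 0.93 SE), Clps (−4.55 ± 1.14) and Pnliprp2 (−4.58 ± 1.17) had values smaller in size, and Pnlip, Cel and Pla2g1b larger ones. Without the first control library that median was −2.53. Pnlip and Cel stayed larger in size, Pnliprp1 (−3.01) became larger, Pla2g1b (−1.56) became smaller, and Clps and Pnliprp2 lay close to it. Whether any of the 6 genes differed from the median was not tested.

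**Figure D5:**
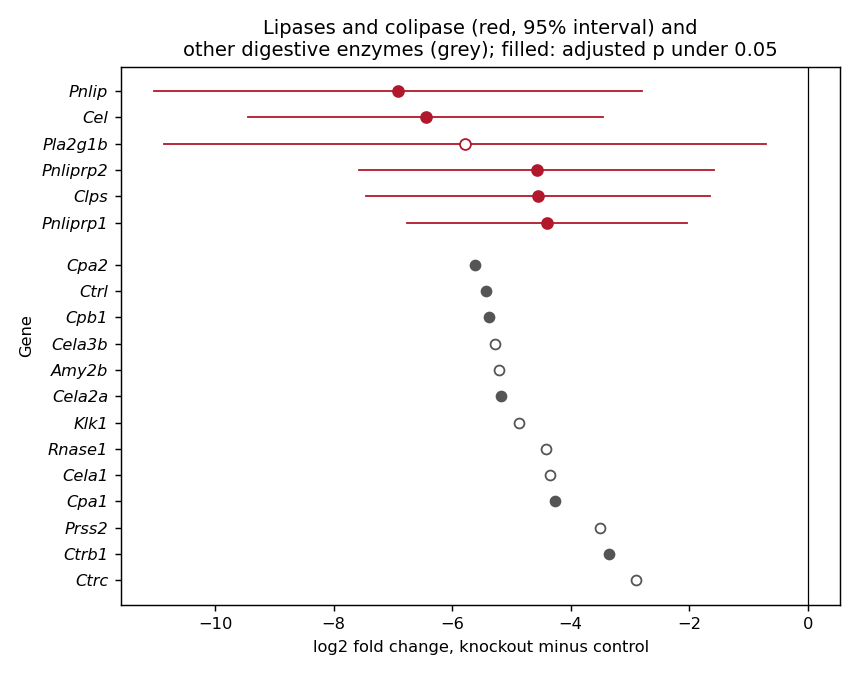
Log2 fold change, knockout minus control, of the 6 lipase and colipase genes with 95% intervals (red) and of 13 other digestive enzymes (grey), filled where the edgeR adjusted p was under 0.05. Pnlip at −6.92 and Cel at −6.45 lie furthest left, and all other enzymes lie to the right of Pla2g1b at −5.79.

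Genes of the granules and of the control of secretion showed a mixed picture. Of 13 tested, 6 fell (9.95% of all genes tested were called lower) and 7 did not pass (edgeR, median −0.98). edgeR called 1 lower when the first control library was left out, and 4 without the second. limma-voom called 2 lower, edgeR without scaling 3 and the fit with a replicate block 4. Gp2, a granule membrane protein, fell by 5.45 ± 0.79, and Rab27b, a GTPase of granule release, fell by 1.25 ± 0.21 (edgeR adjusted p = 0.0130 and 0.0183). Zg16, a granule lectin also made in the gut, was at 0.466 and 71.4 CPM in the libraries labelled knockout, against 303 and 13.6 CPM in control libraries, and did not pass (edgeR adjusted p = 0.482). Zg16 and the receptor gene below were chosen after their values were seen. Cckar, the receptor by which cholecystokinin calls forth enzyme release after a fatty meal, was at 4.05 and 17.4 CPM in the libraries labelled knockout, against 90.7 and 25.3 CPM in control libraries (−2.43 ± 0.88, edgeR adjusted p = 0.109).

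Transcription factors of acinar enzyme genes were lower in part. Of 10 tested, 5 fell (9.95% of all genes tested were called lower) and 5 did not pass (edgeR, median −1.36). Rbpjl, the acinar subunit of PTF1, was at 2.40 and 7.19 CPM in the libraries labelled knockout, against 88.0 and 20.2 CPM in control libraries (−3.49 ± 0.87, edgeR adjusted p = 0.0468). Nr5a2, a nuclear receptor that binds the letters AAGGTCA, fell by 1.13 ± 0.28 (edgeR adjusted p = 0.0445). Foxa2 and Gata6, factors of foregut and pancreas identity, fell by 2.08 ± 0.22 and 0.59 ± 0.12 (edgeR adjusted p = 0.00662 and 0.0279). Without the first control library 1 of the 10 was called lower, and without the second 2 were.

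Of 7 other secreted lipases made outside the acinar cell 5 were tested. Of these, 1 rose (12.1% of all genes tested were called higher) and 4 did not pass. Of the 5, 0 were called lower (9.95% of all genes were called lower). Lipf and Lipi had 0 counts in all 4 libraries. None of the 5 was lower at an unadjusted p under 0.05 in the edgeR test (0 genes), and DESeq2 and limma-voom called 0 lower. Without the first library labelled knockout 1 of the 5 was called lower, Pla1a, a phospholipase A1, at 55.8 and 31.0 CPM in the libraries labelled knockout, against 63.7 and 53.8 CPM in control libraries. The gene that rose was Lpl, the lipoprotein lipase of fat and muscle, at 998 and 800 CPM in the libraries labelled knockout, against 402 and 294 CPM in control libraries (1.37 ± 0.22, edgeR adjusted p = 0.0155). Intracellular lipolysis genes rose in 4 of 6 cases (edgeR; median 1.64). Pnpla2, the first lipase of fat-droplet breakdown, rose by 1.74 ± 0.23, and Lipe, hormone-sensitive lipase, by 2.22 ± 0.33 (edgeR adjusted p = 0.0101 and 0.0135). Mgll, which splits monoglycerides, rose by 1.55 ± 0.29, and Plin1, a coat protein of fat droplets, by 3.27 ± 0.65 (edgeR adjusted p = 0.0226 and 0.0271). In the same libraries 9 of 10 adipocyte markers were called higher, with summed levels of 4529 and 3909 CPM in the libraries labelled knockout, against 345 and 956 CPM in control libraries. The part of adipocytes in these values was not tested.

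Secreted phospholipases other than Pla2g1b, listed together with their receptor Pla2r1, went both ways. Of 10 genes in this list 7 were tested. Of these, 2 rose, 1 fell and 4, Pla2r1 among them, did not pass (edgeR, median 0.22). Of all genes tested, 12.1% were called higher and 9.95% lower. Pla2g2d, a phospholipase of lymphoid tissue, was at 134 and 111 CPM in the libraries labelled knockout, against 7.60 and 7.2 CPM in control libraries (4.05 ± 0.14, edgeR adjusted p = 0.00153). Pla2g5 rose by 2.06 ± 0.34 and Pla2g2f fell by 2.58 ± 0.58 (log2; edgeR adjusted p = 0.0177 and 0.0352). With the first or the second control library left out 1 gene was called, higher, and without the first library labelled knockout 4 were called higher and 1 lower.

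Genes that take up and export digested fat were called higher in 3 of 10 tested cases and lower in 0 (edgeR, median 3.0), with 13 in the list. Of all genes tested, 12.1% were called higher and 9.95% lower. Dgat1 and Dgat2, which complete triglyceride synthesis, rose by 1.60 ± 0.12 and 3.08 ± 0.38, and Cd36, a fatty acid transporter also abundant in fat, by 2.14 ± 0.31 (edgeR adjusted p = 0.00291, 0.00871 and 0.0126). In the libraries labelled knockout Dgat1 was at 88.9 and 95.5 CPM, Dgat2 at 152 and 86.2 CPM and Cd36 at 847 and 587 CPM. The part of adipocytes in these values was not tested. The count moved when the first library of either group was left out. The median fell only without the second library labelled knockout, which held the enterocyte markers. Without that library 3 of 10 tested genes were called higher and 1 lower, with a median of 0.74. Without the first library labelled knockout 12 of 13 were called higher, with a median of 4.36. Without the first control library 1 of 13 was called higher, and with all 4 libraries DESeq2 called 6 higher and the fit with a replicate block 5. In the second library labelled knockout all 6 lipase and colipase genes were higher than in the first library labelled knockout, from 2.05-fold for Pnlip to 3.90-fold for Pnliprp2, with Pla2g1b at 8 counts against 0. The part of intestinal tissue in this difference was not tested. Without the second library labelled knockout the 6 fold changes were larger in size, from −5.44 for Pnliprp1 to −7.53 for Pnlip among the 5 genes with counts in both groups.

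By Euclidean distance between log2 CPM profiles over the 4 libraries, each centred on its mean, the 6 genes most like the mean of the lipase and colipase genes were Try10, Klk1, Ctrl, Cela2a, Sycn and Cela3b. Try10, a trypsinogen, was the nearest, with a distance of 0.321, and stood at 0.573 and 2.53 CPM in the libraries labelled knockout, against 93.1 and 11.0 CPM in control libraries. Trypsinogen genes are near-identical copies whose reads may be split. Of the 6, 4 belong to the list of other digestive enzymes, and the distance of the sixth was 0.614. Among the lipase and colipase genes themselves Pnliprp2 (0.622) and Clps (0.651) lay nearest to their common mean, and Pla2g1b (1.41), Cel (1.32) and Pnlip (1.28) furthest.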

How the data were processed

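Each deposited file holds 1 library as raw counts, whole numbers per gene symbol with no normalisation, per the file headers and the values. The submitters' processing notes list featureCounts 2.0.1, SAMtools 1.7, STAR 2.7.6a, Trim Galore 0.6.6 and FastQC 0.11.9, and the build GRCm38. Which annotation and strand setting were used, and how reads with several alignments were counted, is not given in the sources consulted. In these libraries 1 count was worth 0.0359 to 0.0437 CPM.

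The test over all genes was that of edgeR 4.0.16, run in R 4.3.3 (filterByExpr, TMM, quasi-likelihood F test, group as the only term, Benjamini-Hochberg adjustment at 0.05). SE was taken as the absolute log2 fold change over the root of F. The edgeR step was run on simulated data with 2-fold and 4-fold changes and the same spread for every gene. It recovered 10.1% of the 2-fold and 91% of the 4-fold changes, with 3 wrong calls among 104. The lipase and colipase genes varied more between control libraries than that spread, so the run does not cover their calls. Alternatives were 4 scalings, 2 filters, DESeq2 1.42.0, limma 3.58.1 voom, a replicate block and each library left out. Genes and lists were chosen with earlier results of these data known, and the promoter motifs after the windows had been read. Named genes are the 6, Psmd14, up to 2 called genes with the smallest p per list, all in a direction with 5 or fewer calls, and the 6 nearest profiles. A gene that this rule would name is not reported here. Exon lengths are unions over GENCODE M21 transcripts.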

Additional observations from a re-analysis of the deposited data

How the results depend on the processing

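The 6 fold changes were negative in all 54 values from alternatives that kept the 4 libraries and in all 24 with 1 library left out. With the libraries kept, 45 values stayed on their side of the threshold and 9 lost a call. Pnliprp2 lost its call with DESeq2 size factors (−4.56), TMM factors without digestive enzymes (−4.57), a mean count of at least 10 (−4.58), limma-voom (−4.24) and the replicate block (−4.15). Clps lost it with a mean count of at least 10 (−4.55), limma-voom (−4.21) and the block (−4.15), and Pnlip with limma-voom (−5.78). The count of genes called lower was therefore 3 with a mean count of at least 10, 2 with limma-voom and 3 with the replicate block, against 5, and the cause was not tested. With 1 library left out the range was −7.84 to −3.58 for Pnlip, −5.44 to −3.01 for Pnliprp1, −5.87 to −2.50 for Pnliprp2, −7.34 to −4.46 for Cel, −5.75 to −2.53 for Clps and −10.61 to −1.56 for Pla2g1b, and 0 to 6 of the 6 genes were called lower. These fits take the spread of a group with 1 library from the other group. Over all genes 4224 were called (2320 higher and 1904 lower), and 1126 to 4034 with 1 library left out. Without scaling the split was 2827 higher and 1527 lower. Same-numbered libraries did not deviate together across genes (r = 0.0282), so the replicate block pairs libraries that share only a number; with it 3392 genes were called. The log2 difference in the ratio of the 6 genes to the other enzymes was −0.73, and kept its sign under each alternative run. It was −0.58 with means of log2 CPM. It came to −0.25 without Ctrb1 and −0.03 without Ctrb1 and Prss2, both chosen after seeing the data. With 2 libraries per group, 0 to 58 counts for Pnlip and Pla2g1b in the libraries labelled knockout limit the precision of their folds.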
